A study of Mus musculus with 8 samples.

Results

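The 68 genes described here were the abundant long noncoding RNAs of mouse smooth muscle cells sorted from lung, intestine and bladder. They were chosen from the 8 measured values: a gene entered when the table gave it the biotype lncRNA and at least 300 normalized reads in 2 or more of the 8 libraries, leaving out Hoxa11os, H19 and Meg3. That took 68 of 21649 genes, out of 3257 with the lncRNA biotype. The 2 lung, 3 intestine and 3 bladder libraries came from cells labelled non-vascular smooth muscle cells and sorted by fluorescence. In all 3 tissues the mice had the genotype Cspg4-Dre/Acta2-CreERT/R26-GFP, so all shared a Dre recombinase driven by Cspg4, a tamoxifen-activated Cre driven by Acta2, and a GFP reporter in Rosa26, and tamoxifen was given into the peritoneum at 0.75 mg per 10 g for 3 days. The question was how such cells differ between organs.

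Long noncoding RNAs are transcripts that are mostly spliced and polyadenylated like messenger RNAs but encode no known protein. Some stay in the nucleus, where they build nuclear bodies or silence neighbouring genes, some are the precursors from which small nucleolar RNAs (snoRNAs) or microRNAs are cut, and some start at the promoter of a coding gene and run the other way. In smooth muscle the best known is Carmn, the transcript beside the miR-143 and miR-145 genes, and several others lie beside transcription factor genes that pattern the mesenchyme of the gut, lung and limb.

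A normalized read is a read count that the authors had scaled by 1 factor per library. The libraries held 13.62 and 12.67 M reads in lung, 12.03 to 13.19 M in intestine and 9.72 to 10.96 M in bladder, reconstructed from the spacing of the values. The 3 reads, the most that a count of 0 allows, corresponded to 2.47 to 3.8 normalized reads, and such floors cover counting error only. The smooth muscle markers were present in every library but not level. The 10 summed to 31359 to 34837 in lung, 31038 to 33688 in intestine and 19829 to 24040 in bladder. Acta2 ranged from 2630 to 2719 in lung, 2454 to 2876 in intestine and 2323 to 2933 in bladder. By mean, Myh11, Tagln, Des, Smtn, Lmod1, Synpo2 and Myocd were lowest in bladder, and Cnn1 and Actg2 were highest there. Lmod1 averaged 3326 in lung, 2438 in intestine and 313 in bladder. Cspg4, whose promoter drives Dre, reached 4757 and 4045 in lung and 4220 to 4617 in intestine, against 387 to 433 in bladder. Markers of other cells moved with tissue: summed over 10 fibroblast genes they came to 40435 to 44801 in lung, 52285 to 56052 in intestine and 74625 to 84329 in bladder. The 10 intestinal epithelial markers summed to 341 to 597 in lung, 10934 to 11995 in intestine and 730 to 848 in bladder, the 10 urothelial ones to 371 to 449, 1375 to 1418 and 7311 to 9804 in the same order of tissues, and the 10 lung epithelial ones to 3965 to 4165, 676 to 735 and 392 to 475. Lgr5 made up most of the intestinal sum in lung (556 and 265) and bladder (444 to 559), and had 359 to 404 in intestine. Krt20, which is in both the intestinal and the urothelial list, and Foxa1 made up most of the urothelial sum in intestine, at 452 to 502 and 591 to 696. Endothelial markers summed to 9787 to 10430 in lung, 16574 to 18477 in intestine and 5761 to 7654 in bladder, and pericyte markers to 20816 to 24587, 25060 to 26354 and 9585 to 9976. Of these lists Tek and Pdgfrb were highest in bladder by mean. All marker values are on the deposited scaling, where 1 read was worth 1.096 to 1.268 in bladder and 0.822 to 0.957 in lung and intestine. The sums and the order of single markers, Cnn1 and Actg2 among them, were not recomputed with that scaling undone. The part of these other cells in the tissue differences below was not tested, and in bulk libraries fewer cells of a type and less RNA per cell cannot be told apart. The labels do not say whether the libraries of a tissue were from different mice, and the spread that the p-values rest on may thus be technical.

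The starts of 4 RNAs whose values followed those of the coding gene beside them are shown first. The windows below are RefSeq sequences, build GRCm38.p6: the 250 bases before the start in lower case and the first 50 transcribed bases in capitals, on the strand of the noncoding RNA. Gm20467 is the partner of Nkx2-3 (chr19:43612007-43612306, minus strand), Hand2os1 of Hand2 (chr8:57320810-57321109, minus strand), E030013I19Rik of Itga8 (chr2:12300996-12301295, plus strand) and Fendrr of Foxf1 (chr8:121083061-121083360, minus strand).
Gm20467: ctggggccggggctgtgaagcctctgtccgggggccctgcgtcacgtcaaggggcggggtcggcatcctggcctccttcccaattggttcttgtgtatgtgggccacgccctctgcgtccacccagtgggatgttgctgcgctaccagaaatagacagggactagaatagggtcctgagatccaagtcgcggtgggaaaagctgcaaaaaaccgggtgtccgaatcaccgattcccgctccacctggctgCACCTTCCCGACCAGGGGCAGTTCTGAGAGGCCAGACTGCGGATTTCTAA
Hand2os1: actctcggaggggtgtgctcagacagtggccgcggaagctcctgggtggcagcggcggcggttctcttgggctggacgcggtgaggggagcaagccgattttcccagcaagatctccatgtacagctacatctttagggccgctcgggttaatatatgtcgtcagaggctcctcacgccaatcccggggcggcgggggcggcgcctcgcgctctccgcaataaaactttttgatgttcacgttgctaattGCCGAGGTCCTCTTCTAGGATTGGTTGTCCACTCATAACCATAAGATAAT
E030013I19Rik: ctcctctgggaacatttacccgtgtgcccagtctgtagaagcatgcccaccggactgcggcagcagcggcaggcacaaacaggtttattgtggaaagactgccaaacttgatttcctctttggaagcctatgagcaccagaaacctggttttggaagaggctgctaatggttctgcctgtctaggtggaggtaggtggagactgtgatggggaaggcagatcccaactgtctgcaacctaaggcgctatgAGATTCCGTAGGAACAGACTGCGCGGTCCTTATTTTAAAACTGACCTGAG
Fendrr: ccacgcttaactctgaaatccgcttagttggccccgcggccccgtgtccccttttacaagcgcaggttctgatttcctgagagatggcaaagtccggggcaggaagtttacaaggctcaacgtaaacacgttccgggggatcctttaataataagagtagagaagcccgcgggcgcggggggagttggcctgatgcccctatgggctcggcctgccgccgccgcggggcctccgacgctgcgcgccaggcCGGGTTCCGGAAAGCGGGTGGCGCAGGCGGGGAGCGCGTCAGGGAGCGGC
In RefSeq the starts of Gm20467 and Nkx2-3 were 269 bases apart and their 300-base windows shared 232 bases, so the first sequence covers most of the Nkx2-3 promoter window as well. The table's own coordinates, build mm39, put the starts of Gm20467 and Nkx2-3 1700 bases apart, so the 2 annotations place the promoters differently. By the table's coordinates the starts of the other 3 pairs lie 3250 (Hand2), 976 (Itga8) and 1276 (Foxf1) bases apart. Whether the RefSeq windows of these 3 reach the RefSeq start of the coding gene was not checked.

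RefSeq held start windows for 47 of the 68 genes, 55 windows in all, and they were searched on both strands for a pair of named motifs. The CArG box, the element that serum response factor binds at smooth muscle contractile genes, occurred in 1 of the 47, E430024I08Rik, and in 1.63% of all 32851 windows. The cyclic AMP response element TGACGTCA occurred in 3, B230354K17Rik, Gas5 and Snhg15, and in 1.79% of all windows. None of the 47 genes had both. A terminal oligopyrimidine start, searched on the transcribed strand as C followed by at least 4 pyrimidines within 2 bases of the annotated start, occurred in 6 genes and in 8.96% of all windows. It is the start of ribosomal protein messenger RNAs and of several snoRNA host RNAs. Of the 6, Gas5 (chr1:161035151-161035190, plus strand) and Snhg18 (chr15:32244638-32244677, minus strand) are hosts described below, the others being AI506816, Gm20467, Mir99ahg and Oip5os1. The 40 bases around the start are printed with the pyrimidine run in capitals, from the first matching C within 2 bases of the start. In Snhg18 the 2 lower case bases before the capitals are pyrimidines too.
Gas5: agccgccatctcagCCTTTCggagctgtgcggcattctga
Snhg18: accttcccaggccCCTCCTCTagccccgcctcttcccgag

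The microRNAs cut from these transcripts are printed because the host values later in the text stand for them only indirectly. Mir22hg contains miR-22, and Mir99ahg contains miR-99a, let-7c and miR-125b in 1 transcript. Their mature RefSeq sequences follow, with the seed, bases 2 to 8, in capitals.
mmu-miR-22-3p: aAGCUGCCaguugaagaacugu
mmu-miR-99a-5p: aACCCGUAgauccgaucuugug
mmu-let-7c-5p: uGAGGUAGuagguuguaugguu
mmu-miR-125b-5p: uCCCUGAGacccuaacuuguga
The 4 seeds differ from each other, so the 3 microRNAs of Mir99ahg do not share a seed.

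As a group the 68 RNAs took a small and similar share of each tissue's values. They summed to 2942 ± 51.8 ppm of a library's summed values in lung (SD, n = 2), 2919 ± 92.5 in intestine (SD, n = 3) and 2691 ± 40.6 in bladder (SD, n = 3). All 3257 lncRNA genes summed to 8833 ± 70.5, 8480 ± 165 and 7205 ± 144 ppm in the same order of tissues. Abundant is relative: by the same measure 10078 of 16330 protein coding genes met the threshold that 70 lncRNA genes met, and the highest long noncoding RNA, Malat1, ranked 1151 among all genes by mean value. The lowest, Gm20467, ranked 11671. Per length the order changed. Over the 59 genes with an exon length in the GENCODE M21 annotation, levels ran from 4.32 normalized reads per kb for Kcnq1ot1, whose annotated exon is 93092 nt, to 689 per kb for Gm36535, with a median of 108 per kb. Malat1 was 8th by this measure at 309 per kb and Neat1 42nd at 71.5 per kb, behind Snhg18 at 582, AW112010 at 534 and Mir22hg at 412 per kb.

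Of the 68 genes 19 were at 300 or more in all 8 libraries, and the other 49 in 2 to 7. By tissue, 4 of the 49 were at 300 or more in every lung and every intestine library only, 4 in lung and bladder, 6 in intestine and bladder, 5 in lung, 9 in intestine and 10 in bladder, and 11 in no tissue in full. These patterns follow from the rule and are descriptions. At the edge of the rule B230354K17Rik, Trmt61b and R74862 entered with a second highest value of 300, 303 and 305, while 9030622O22Rik at 295, 2810002D19Rik at 294 and 9530026P05Rik at 294 did not. The biotype came from the table: Trmt61b and Ube2d-ps carry the symbols of a coding gene and a pseudogene, where reads from near-identical copies cannot be told apart, and Tug1, a well known noncoding RNA with 723 and 1066 normalized reads in lung, 1121 to 1325 in intestine and 1184 to 1480 in bladder, was listed as protein coding and stayed out. Of the 68, 6 had no symbol and are given by their gene ID.

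**Figure D1:**
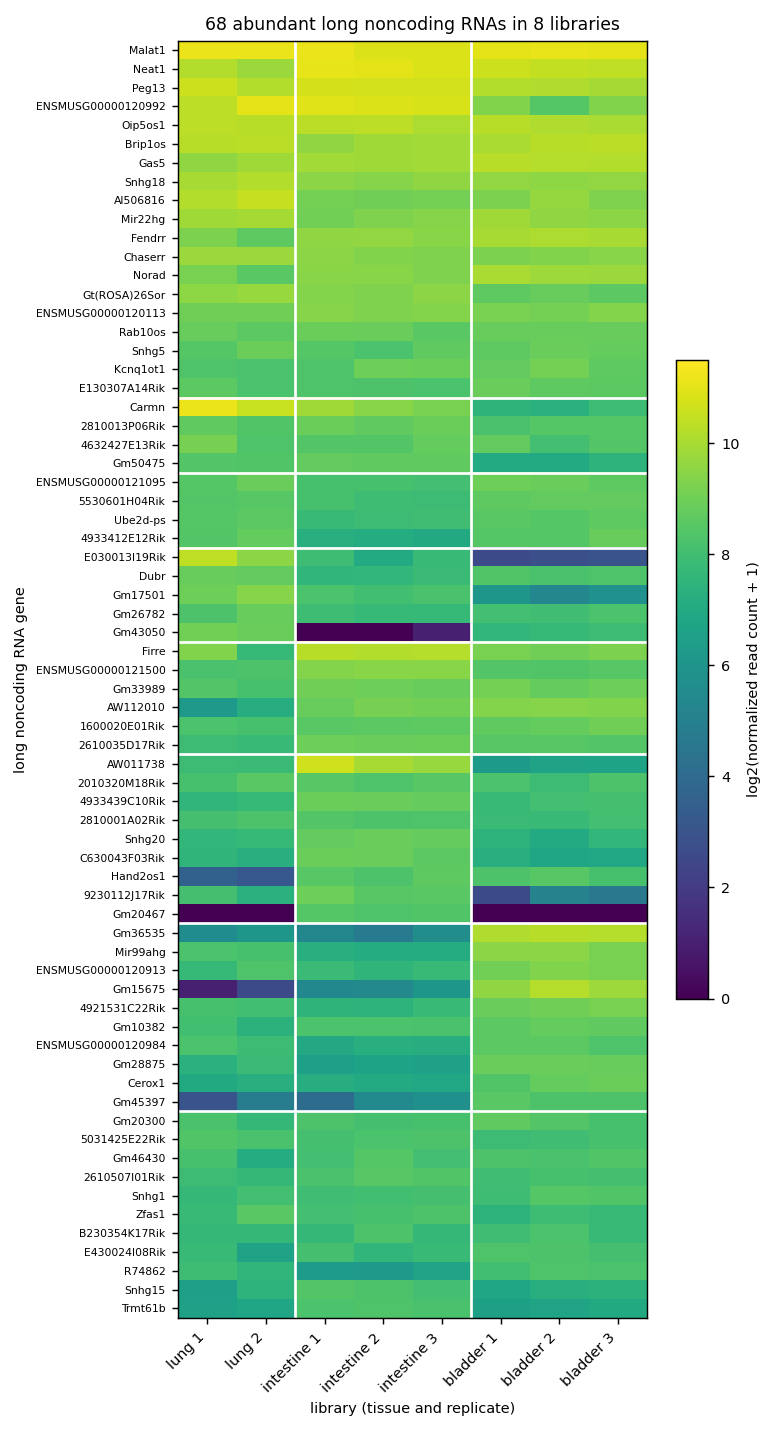
Log2 of the normalized read count plus 1 of the 68 long noncoding RNAs (rows) in the 2 lung, 3 intestine and 3 bladder libraries (columns), in blocks by the tissues in which every library reached 300. The top block holds the 19 genes at 300 or more in all 8 libraries. Gm43050 is dark in the intestine columns, where it had 0, 0 and 1, and Gm20467 is dark everywhere but in intestine, where it had 354, 321 and 328.

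Tests were read only for the 19 RNAs above 300 in all libraries, since a gene that entered through 1 tissue had to differ. Differences are on the scale of log2(normalized reads + 1), with p-values from limma adjusted over all 18097 genes tested. Between intestine and bladder 4 of the 19 were higher in intestine and 6 lower at an adjusted p under 0.05, where 28.7% of all tested genes were higher and 23.3% lower. Their median difference was -0.09, beside 0.06 over all tested genes and -0.12 over the 7201 genes of any biotype at 300 or more in all libraries, of which 17.5% were higher and 36.6% lower. Between lung and bladder 5 were higher in lung and 4 lower, against 19.2% higher and 21.8% lower among all tested genes and 18.0% and 27.1% among the 7201. The median difference was 0.07, beside 0.00 over all tested genes and -0.05 over the 7201. Between lung and intestine 5 were higher in lung and 4 lower, against 15.9% and 23.6% of all tested genes and 22.6% and 14.2% of the 7201, and the median was 0.07, beside -0.04 and 0.06. Counts so close to these shares are no result about the 19 RNAs as a group.

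The split depended on scaling. With the deposited scaling undone, so that depth differences stayed in the values, 9 were higher and 0 lower in intestine than in bladder (all-gene median 0.45), 10 higher and 1 lower in lung than in bladder (all-gene median 0.48), and 6 higher and 1 lower in lung than in intestine. With equal totals the splits were 4 and 4, 8 and 4, and 5 and 3. With quantile normalization the first split was 4 and 8. Libraries mattered too: the 6 lower in intestine than in bladder became 2 without intestine replicate 1 and 3 without intestine replicate 3, bladder replicate 1 or bladder replicate 2. The 5 higher in lung than in intestine became 3 without lung replicate 2, and the 4 lower became 2 without intestine replicate 2, intestine replicate 3 or bladder replicate 2.

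Large differences were few. A difference of at least 1 on the log2 scale was reached by 1 of the 19 between intestine and bladder (5.26%, beside 8.51% of the 7201 genes), by 3 between lung and bladder (15.8%, beside 8.19%) and by 2 between lung and intestine (10.5%, beside 4.76%). Fendrr, Neat1 and Norad passed the test in all 3 pairs, 8 genes in 2 pairs and 3 genes in 1. Kcnq1ot1, Malat1, Oip5os1, Rab10os and Snhg5 passed in none, although some did under single alternatives. Snhg5 was lower in intestine than in bladder with quantile normalization (-0.55, limma adjusted p = 0.0242), and Malat1, Oip5os1 and Kcnq1ot1 are given with their values below. With the scaling undone, Fendrr, Norad, Mir22hg, Brip1os and E130307A14Rik no longer passed between intestine and bladder, at -0.08 to -0.02, nor did Fendrr and Norad between lung and intestine or Norad between lung and bladder.

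**Figure D2:**
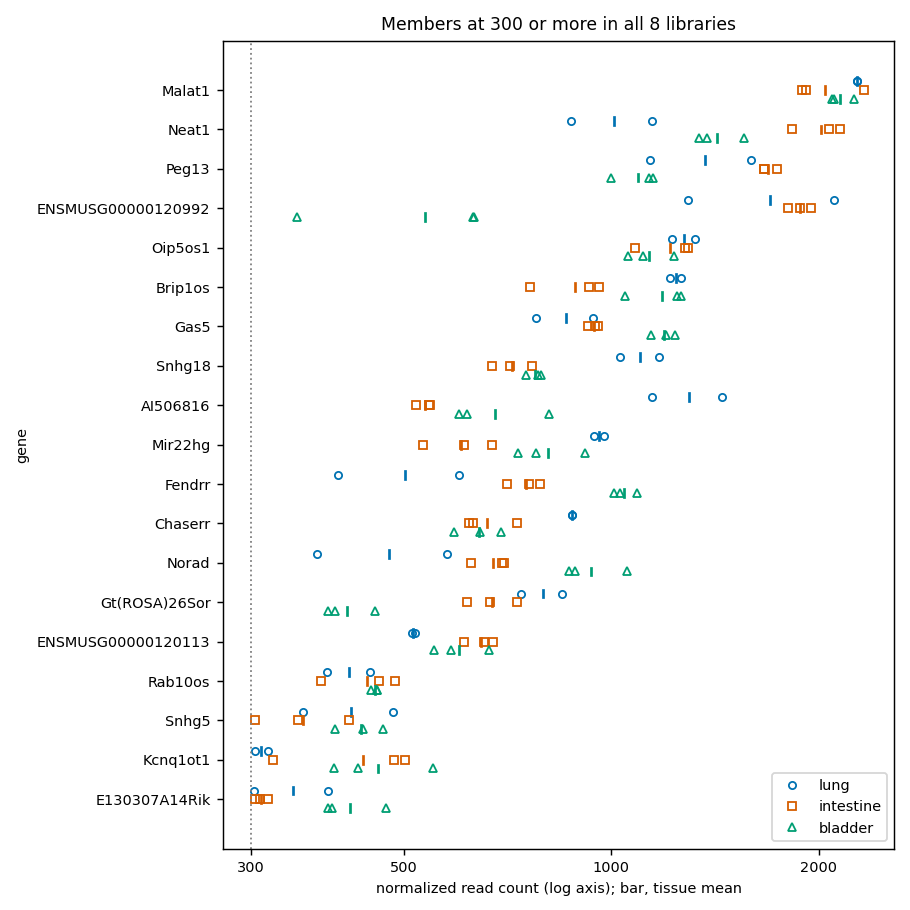
Normalized read counts (log axis) of the 19 long noncoding RNAs at 300 or more in all 8 libraries, 1 symbol per library and a bar at each tissue mean. The intestine range of Malat1 overlaps those of lung and bladder, the lung values of AI506816 and Snhg18 lie above all others, and the bladder values of Gt(ROSA)26Sor lie below all others.

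**Figure D3:**
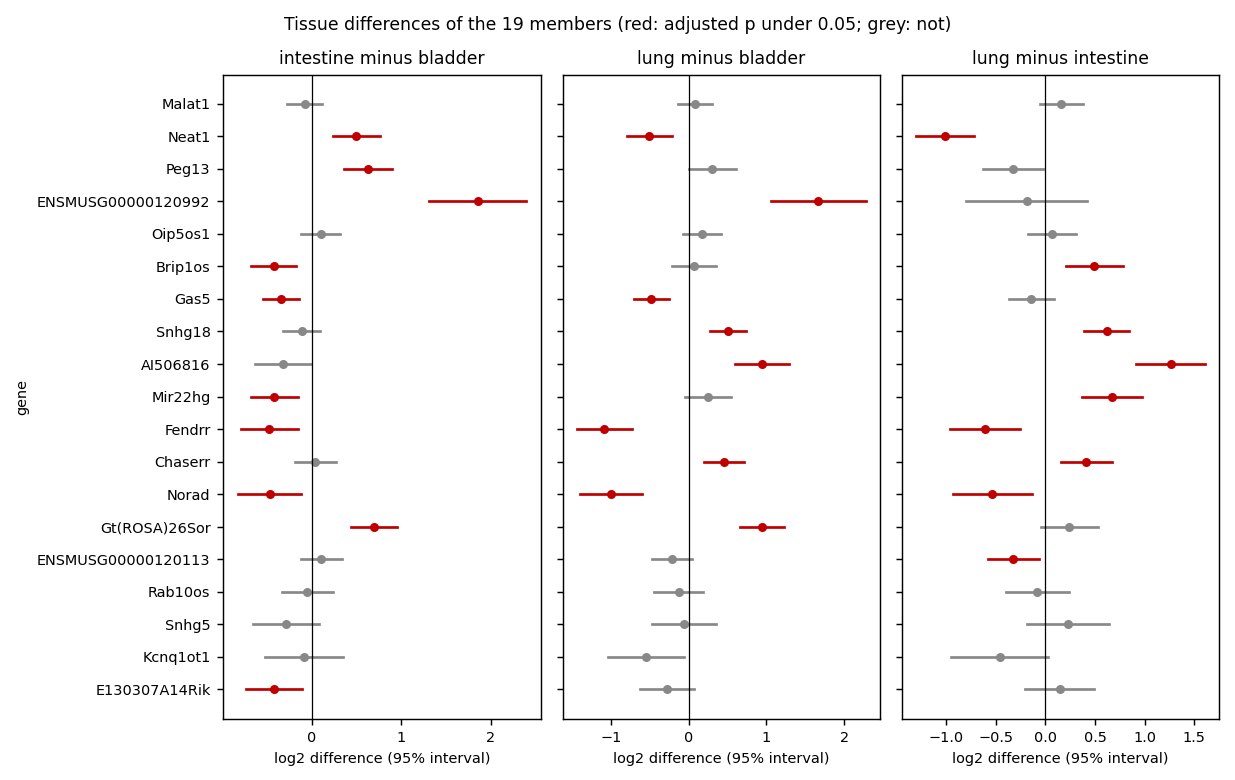
Fitted log2 differences of the same 19 genes in the 3 pairs of tissues, with 95% intervals from limma and red marking an adjusted p under 0.05. ENSMUSG00000120992 has the largest difference from bladder, and the intervals of Malat1 and Oip5os1 include 0 in every pair.

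Neat1 differed between all tissues, while its neighbour on chromosome 19, Malat1, passed the test in no pair as deposited. Malat1 (chr19:5845717-5852704 in mm39) is retained in nuclear speckles, where splicing factors gather. It had 2272 and 2272 normalized reads in lung, 2327, 1891 and 1917 in intestine, and 2089, 2250 and 2104 in bladder, and the intestine range overlapped those of lung and bladder. Its differences were -0.08 between intestine and bladder (95% interval -0.27 to 0.12, limma adjusted p = 0.484), 0.08 between lung and bladder (-0.13 to 0.30, adjusted p = 0.54) and 0.16 between lung and intestine (-0.06 to 0.38, adjusted p = 0.223). Other settings called it: without intestine replicate 1 it was higher in lung than in intestine (0.26, adjusted p = 0.0317), and with quantile normalization higher in lung than in bladder (0.28, adjusted p = 0.0373). With the scaling undone it was higher in lung than in bladder (0.59, adjusted p = 0.00179) and the intestine and bladder difference turned to 0.32 (adjusted p = 0.0207), below the all-gene median of that setting.

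Neat1 (chr19:5874736-5895898), the scaffold of paraspeckles, had 1146 and 874 in lung, 2151, 2072 and 1831 in intestine, and 1558, 1379 and 1341 in bladder. The 3 tissues did not overlap, with intestine highest and lung lowest. Neat1 was higher in intestine than in bladder by 0.50 ± 0.11 (log2, SE; limma adjusted p = 0.00504) and lower in lung than in intestine by a difference of -1.01 ± 0.13 (adjusted p = 0.000243). It was lower in lung than in bladder at -0.51 ± 0.13 (adjusted p = 0.0113), but without lung replicate 2 that difference was -0.31 with adjusted p = 0.0798, with only those 2 tissues in the fit the adjusted p was 0.0626, and with the scaling undone it was 0.00. Frmd8, the coding gene 3832 bases away on the same strand, had 1540 and 1698 in lung, 997 to 1178 in intestine and 1186 to 1278 in bladder, and was higher in lung than in intestine by 0.58 ± 0.10 (adjusted p = 0.0012), the opposite order.

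The remaining nuclear members were Kcnq1ot1 and Firre. Kcnq1ot1, the imprinted antisense RNA that silences neighbours on the paternal chromosome, had 318 and 304 in lung, 323, 502 and 484 in intestine and 429, 552 and 396 in bladder, and passed in no pair. Intestine replicate 1 decided this: without it Kcnq1ot1 was lower in lung than in bladder (-0.55, limma adjusted p = 0.0326) and than in intestine (-0.66, adjusted p = 0.025). The coding gene it lies in, the potassium channel gene Kcnq1 on the other strand, had 52 and 55 in lung, 1564, 1701 and 1912 in intestine and 32, 15 and 26 in bladder. Kcnq1 was higher in intestine than in bladder by 6.15 ± 0.27 (limma adjusted p = 3.82e-07) while Kcnq1ot1 differed by -0.09 ± 0.19. Firre, an X-linked RNA held on chromatin, had 644 and 207 in lung, 1212, 1164 and 1182 in intestine and 576, 514 and 602 in bladder. Its intestine values lay above all others, and its lung libraries lay far apart, on either side of the bladder range. Of a list of nuclear RNAs drawn up from general knowledge, 3 tested genes were not abundant enough to be included above: Rian and Mirg passed as lower in both intestine and lung than in bladder, and Airn passed in no pair. Of all tested genes 23.3% and 21.8% were called lower in those pairs. Mirg, with 8 and 25 in lung, lost its call between lung and bladder with only those 2 tissues in the fit (limma adjusted p = 0.0817), without bladder replicate 3 (0.0569) or with the scaling undone (0.056). Without lung replicate 1 its difference there was -1.015 in place of -1.781.

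Imprinting also covers Peg13, which lies inside the gene Trappc9 on the same strand. It had 1598 and 1140 in lung, 1740, 1667 and 1669 in intestine and 1149, 1136 and 1000 in bladder. Peg13 was higher in intestine than in bladder by 0.63 ± 0.12 (limma adjusted p = 0.00176), and of its lung libraries 1 lay within the bladder range and 1 just below the intestine range. Lung did not pass against either tissue, at 0.30 ± 0.13 over bladder (adjusted p = 0.1) and -0.33 ± 0.13 against intestine (adjusted p = 0.0824), but 1 library decided this: without lung replicate 2 the first was 0.55 with adjusted p = 0.00368, and without lung replicate 1 the second was -0.57 with adjusted p = 0.00259. Trappc9 itself did not differ between intestine and bladder beyond its spread, at 0.01 ± 0.13.

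The hosts of snoRNAs carry those guides of ribosomal RNA modification in their introns, while their spliced exons have little coding content. Of the 59 members found in GENCODE M21, 8 (13.6%) had an annotated snoRNA inside their span, against 37 of 2631 lncRNA genes (1.41%); Gas5 held 9, Snhg1 8, Zfas1 3 and Snhg5 2. Gas5 (chr1:160861992-160866116) had 778 and 940 in lung, 947, 926 and 958 in intestine and 1239, 1201 and 1141 in bladder. All bladder values were above all others. It was lower in intestine than in bladder at -0.34 ± 0.09 (limma adjusted p = 0.0103) and in lung than in bladder at -0.48 ± 0.10 (adjusted p = 0.00408), and with the scaling undone these were 0.06 and 0.03, both below the all-gene median of that setting. Gas5 overlaps Zbtb37 on the other strand, which had 30 to 109 normalized reads in the 8 libraries.

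Snhg18 (chr15:32240711-32244848) was highest in lung, with 1031 and 1173 in lung, 714, 672 and 768 in intestine and 783, 752 and 790 in bladder. It was higher in lung than in bladder by 0.50 ± 0.10 (limma adjusted p = 0.0034) and than in intestine by 0.62 ± 0.10 (adjusted p = 0.00111). Sema5a, an axon guidance gene whose start lies 108 bases away and runs the other way, had 1362 and 920 in lung, 704, 677 and 754 in intestine and 457, 452 and 434 in bladder. Sema5a was likewise higher in lung, by 1.32 ± 0.15 over bladder (adjusted p = 0.000145) and 0.65 ± 0.15 over intestine (adjusted p = 0.00849), and was also higher in intestine than in bladder by 0.67 ± 0.14 (adjusted p = 0.00288), where Snhg18 differed by -0.11 ± 0.09. Snord123, the snoRNA inside Snhg18, had rows of 6 and 6 in lung, 6 to 8 in intestine and 4 to 8 in bladder.

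AI506816, a host of 1 annotated small RNA, had 1147 and 1450 in lung, 547, 521 and 545 in intestine and 602, 813 and 618 in bladder. Both lung values lay above all others, and of the 19 it had the highest difference between lung and intestine. It was higher in lung by 0.94 ± 0.15 over bladder (limma adjusted p = 0.00105) and 1.26 ± 0.15 over intestine (adjusted p = 0.000178). Snhg5 had 357 and 483 in lung, 304 to 417 in intestine and 398 to 466 in bladder and passed in no pair.

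Among the hosts that entered through some libraries, Snhg20 had 196 and 205 in lung, 429, 468 and 438 in intestine and 170, 130 and 194 in bladder, and Snhg15 had 88 and 174, 344, 307 and 269, and 109, 154 and 166 in the same order. Both were highest in intestine, while Snhg1 ranged from 201 to 350 and Zfas1 from 174 to 378 over all libraries. Of the 13 tested hosts below the threshold, 4 were higher and 0 lower in intestine than in bladder (Epb41l4aos, Snhg4, Snhg9 and Snhg16), 2 higher and 1 lower in lung than in bladder, and 0 higher and 4 lower in lung than in intestine (Snhg4, Snhg9, Snhg11 and Snhg16). These 4 of 13 stand beside the 28.7% of all tested genes called higher in intestine than in bladder and the 23.6% called lower in lung than in intestine. Snhg4 had 48 and 48 in lung, 93, 95 and 111 in intestine and 24, 25 and 24 in bladder. With quantile normalization Epb41l4aos, Snhg9 and Snhg16 no longer passed between intestine and bladder, nor did Snhg4, Snhg9 and Snhg16 between lung and intestine, where Snhg16 turned to 0.04.

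Among microRNA hosts, Carmn was highest in lung, Mir22hg lowest in intestine and Mir99ahg highest in bladder. Carmn (chr18:61782696-61798608) had 2299 and 1489 in lung, 930, 702 and 574 in intestine and 175, 160 and 232 in bladder, so that lung was above intestine and intestine above bladder with no overlap. As a description, the difference was 3.30 between lung and bladder and 1.94 between intestine and bladder. The short precursor rows beside it were highest in lung but overlapped between intestine and bladder. Mir145a had 39 and 19 in lung, 4, 6 and 6 in intestine and 11, 3 and 0 in bladder. Mir143 had 17 and 8, 5, 3 and 0, and 4, 1 and 0, at or near the floor in intestine and bladder. The 10 smooth muscle markers summed to 31359 to 34837 in lung, 31038 to 33688 in intestine and 19829 to 24040 in bladder. The summed pericyte markers were likewise lowest in bladder. Single markers went the other way: by mean Cnn1 and Actg2 of the first list and Pdgfrb of the second were highest in bladder.

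Mir22hg (chr11:75352365-75357502), whose transcript holds the miR-22 sequence printed above, had 943 and 978 in lung, 534, 612 and 671 in intestine and 917, 778 and 733 in bladder. It was higher in lung than in intestine by 0.67 ± 0.13 (limma adjusted p = 0.00317). It was lower in intestine than in bladder at -0.42 ± 0.12 (adjusted p = 0.0146), a call lost without intestine replicate 1 (-0.33, adjusted p = 0.0557) or bladder replicate 1 (-0.32, adjusted p = 0.0609). Mir99ahg, the precursor of miR-99a, let-7c and miR-125b, had 303 and 286 in lung, 149, 140 and 137 in intestine and 726, 728 and 579 in bladder, with bladder above lung and lung above intestine. Its relative Mir100hg, below the threshold, had 466 and 276 in lung, 113, 135 and 81 in intestine and 282, 190 and 158 in bladder, and passed as higher in lung than in intestine by 1.73 ± 0.33 (limma adjusted p = 0.00273). Of the 8 tested hosts that were not members, 2 were higher and 1 lower in lung than in intestine, 1 higher and 2 lower in lung than in bladder, and 0 higher and 4 lower in intestine than in bladder. The shares of all tested genes called in these pairs are those given for the 19 RNAs.

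Beside developmental transcription factor genes lay Gm20467, listed above 0 in intestine libraries only, Gm43050, near 0 in intestine, Hand2os1, low in lung, and Fendrr, highest in bladder. Each had the tissue order of its coding neighbour or close to it. Gm20467 (chr19:43597516-43599064) had 354, 321 and 328 in intestine and was listed at 0 in every lung and bladder library, so it was at least 92.5-fold higher in intestine than the floor of 3 reads per library in bladder, and at least 132-fold lower in lung than in intestine. Its neighbour Nkx2-3, the homeobox factor of gut and spleen mesenchyme, had 0 and 4 in lung, 2808, 2644 and 2799 in intestine and 0, 5 and 0 in bladder. Nkx2-3 reached the 10 normalized reads needed for testing in intestine libraries only. Its calls against lung and bladder were thus fixed and are not given.

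Gm43050 (chr5:119964187-119970100) starts 633 bases from Tbx5, a T-box factor that patterns heart and forelimb, and had 534 and 469 in lung, 0, 0 and 1 in intestine and 198, 205 and 235 in bladder. Tbx5 had 1309 and 1209 in lung, 0 in each intestine library and 358, 364 and 333 in bladder. The order of the tissues was the same for both. Tbx5 was at least 128-fold lower in intestine than in bladder and at least 458-fold higher in lung than in intestine against the floor of 3 reads per library, and was higher in lung than in bladder by 1.84 ± 0.28 (limma adjusted p = 0.000651).

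Hand2os1 (chr8:57734152-57777268) overlaps Hand2, a basic helix-loop-helix factor of heart, limb and gut mesenchyme, on the other strand. It had 11 and 8 in lung, 360, 314 and 403 in intestine and 312, 360 and 288 in bladder, and Hand2 had 4 and 20, 370, 380 and 372, and 287, 249 and 305. For both the lung values lay far below all others. The kit does not mark strand and the strand setting of the counting is not given in the sources used here, so reads of overlapping spans cannot be told apart. Hand2 was lower in lung than in bladder by a difference of -4.77 ± 0.48 (limma adjusted p = 6.12e-05) and than in intestine at -5.19 ± 0.48 (adjusted p = 3.26e-05), and between intestine and bladder it did not pass at 0.42 ± 0.43 (adjusted p = 0.447), although its intestine values lay above its bladder values. The same difference passed with only those 2 tissues in the fit (adjusted p = 0.0129), without lung replicate 1 (0.0248) and without lung replicate 2 (0.0349).

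Fendrr (chr8:121781621-121809849), a lateral mesoderm RNA that starts 1276 bases from the forkhead factor gene Foxf1, had 602 and 402 in lung, 761, 789 and 707 in intestine and 1011, 1091 and 1030 in bladder. The 3 tissues did not overlap. Fendrr was lower in lung than in bladder at -1.08 ± 0.16 (limma adjusted p = 0.000511), lower in lung than in intestine at -0.61 ± 0.16 (adjusted p = 0.0125, or 0.0539 with only those 2 tissues in the fit) and lower in intestine than in bladder at -0.47 ± 0.14 (adjusted p = 0.0179). The last call was lost without intestine replicate 3 (-0.43, adjusted p = 0.069), bladder replicate 2 (-0.44, adjusted p = 0.0636) or, at the threshold itself, intestine replicate 1 (-0.48, adjusted p = 0.05). Foxf1, a factor of gut and lung mesenchyme, had 2442 and 2557 in lung, 2859, 2713 and 2849 in intestine and 3585, 3570 and 3554 in bladder, the same order of tissues, with differences of -0.51 ± 0.06 between lung and bladder (adjusted p = 0.000118) and -0.35 ± 0.05 between intestine and bladder (adjusted p = 0.000418). With the scaling undone neither held, at -0.003 (adjusted p = 0.991) between lung and bladder and 0.05 (adjusted p = 0.559) between intestine and bladder, both below the all-gene medians of that setting. With quantile normalization the second was -0.04 (adjusted p = 0.596). Foxf1 was also among the densely read genes, at 1.25 reads per nt, and the 339 genes above 1 read per nt had median differences of -0.40 between intestine and bladder and -0.42 between lung and bladder, whereas none of the 68 RNAs with a known length reached 1 read per nt. The lung and intestine difference of Foxf1, -0.17 ± 0.06 (adjusted p = 0.0466), was lost without lung replicate 1 or any 1 of the intestine or bladder libraries (adjusted p 0.0538 to 0.113).

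Of the 13 tested RNAs of this kind that were not members, 5 were higher and 6 lower in intestine than in bladder, 4 higher and 5 lower in lung than in bladder, and 3 higher and 3 lower in lung than in intestine. Of all tested genes 28.7% and 23.3%, 19.2% and 21.8%, and 15.9% and 23.6% were called in those pairs and directions. The lower counts against bladder include Hoxa11os, Hottip and Hotair, which were listed at 0 in every lung and intestine library and were tested through bladder alone, so their calls were fixed. Hoxa11os met the threshold but was left out by the rule. Hoxb5os had 119 and 151 in lung, 39, 44 and 64 in intestine and 4, 1 and 3 in bladder, while Hottip had 48, 63 and 59 and Hotair 22, 10 and 9 in bladder.

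**Figure D4:**
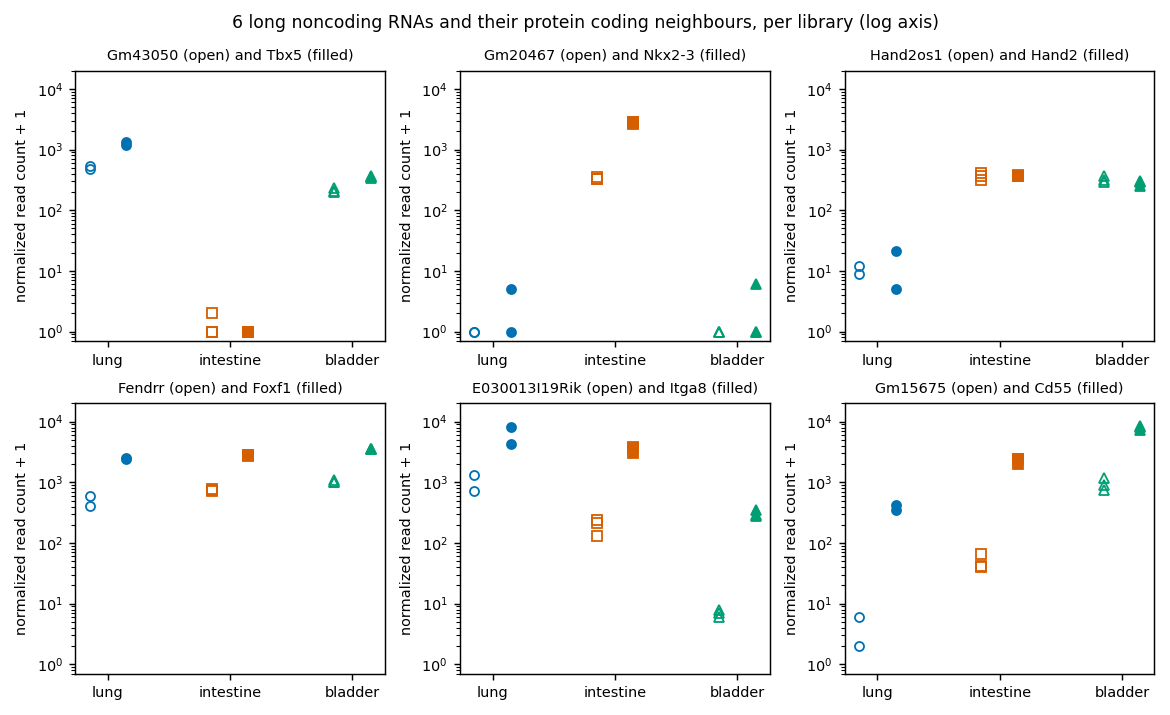
Normalized read counts plus 1 (log axis) of 6 long noncoding RNAs (open symbols) and their coding neighbours (filled symbols), 1 symbol per library. Gm20467 and Nkx2-3 are high in intestine, Gm43050 and Tbx5 are near 0 in intestine, and Hand2os1 and Hand2 are low in lung.

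Position beside a coding gene was common. Of the 68 RNAs 26 (38.2%) started within 1 kb of a coding gene's start on the opposite strand, against 970 of 3257 lncRNA genes (29.8%), and 27 (39.7%) overlapped a coding gene, against 48.8%. A tested coding neighbour within 10 kb was found for 53. Across these pairs the log2 differences of RNA and neighbour correlated with Pearson r = 0.736 for intestine against bladder, 0.759 for lung against bladder and 0.864 for lung against intestine (Spearman rho 0.407, 0.462 and 0.429, n = 53). Most of these RNAs entered the group by their values in some tissues only, so the coefficients describe them and support nothing. The points share libraries and, in overlapping pairs, reads. The 4 pairs with Gm43050, Gm20467, Hand2os1 and E030013I19Rik, chosen after their values were seen, carried much of this: without them r was 0.248, 0.589 and 0.3 (n = 49).

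Most members with a difference of at least 1 had entered through some tissues only, so the rule fixed that they differ. As a description, 15 of the 20 with a tested neighbour (75%) shared its sign between intestine and bladder. Between lung and bladder 13 of 14 (92.9%) did, and between lung and intestine 12 of 16 (75%). Among other tested lncRNA genes with such a difference and a tested neighbour the shares were 71.3%, 73.3% and 71.5%. Of the 53 neighbours of the abundant RNAs, 16 passed as higher and 20 as lower between intestine and bladder. The counts were 11 and 15 between lung and bladder, and 8 and 11 between lung and intestine. The shares of all tested genes were 28.7% and 23.3%, 19.2% and 21.8%, and 15.9% and 23.6%.

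**Figure D5:**
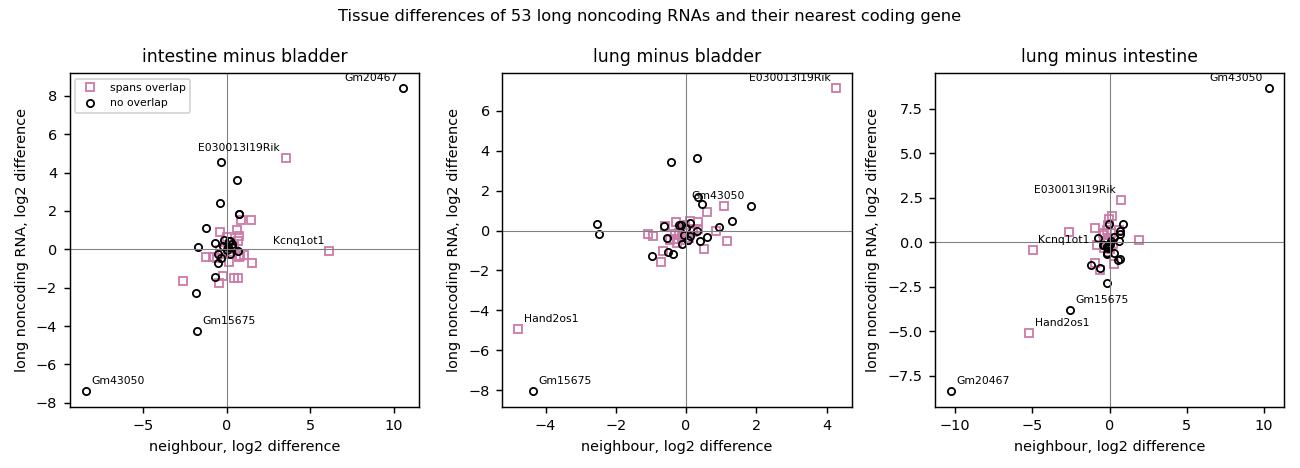
Log2 differences of 53 long noncoding RNAs (vertical axis) against those of the coding neighbour within 10 kb (horizontal axis) in the 3 pairs of tissues, squares marking overlapping spans. Most points lie near the origin, Gm43050, Gm20467, Hand2os1 and E030013I19Rik lie far out on the rising diagonal, and Kcnq1ot1 lies away from it.

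Pairs of matching and of contrary sign were both seen among the abundant RNAs. E030013I19Rik, antisense to Itga8, the gene of an integrin subunit of mesenchymal cells, had 1329 and 715 in lung, 243, 129 and 213 in intestine and 5, 6 and 7 in bladder. Itga8 had 8088 and 4230, 3817, 3751 and 2992, and 344, 289 and 281. Both had the same order of tissues, and with overlapping spans and no strand their reads cannot be told apart. Itga8 was higher than in bladder by 4.26 ± 0.24 in lung (limma adjusted p = 1.79e-06) and 3.52 ± 0.21 in intestine (adjusted p = 1.6e-06), and the lung and intestine difference of 0.74 ± 0.24 (adjusted p = 0.033) was lost with only those 2 tissues in the fit (adjusted p = 0.0896), without lung replicate 1 (0.27, adjusted p = 0.22) or any intestine replicate (adjusted p = 0.0645, 0.0682 and 0.114 without replicates 1, 2 and 3).

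Gm15675, downstream of the complement inhibitor gene Cd55 on the same strand, had 1 and 5 in lung, 40, 41 and 66 in intestine and 760, 1181 and 887 in bladder. Cd55 had 346 and 423, 2015, 2423 and 2435, and 8215, 8386 and 7232, and was lower than in bladder by a difference of -4.37 ± 0.12 in lung (limma adjusted p = 5.44e-08) and -1.80 ± 0.11 in intestine (adjusted p = 1.47e-06). Gm28875, near the nuclear envelope gene Syne3, had 164 and 231 in lung, 89, 102 and 94 in intestine and 467, 473 and 460 in bladder, the same order as Syne3 with 115 and 102, 83, 53 and 47, and 208, 232 and 195.

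Contrary pairs included Gm17501 and Ccn1, a matricellular gene whose start lies 331 bases away. Gm17501 had 499 and 672 in lung, 306, 259 and 295 in intestine and 67, 39 and 56 in bladder, while Ccn1 had 3492 and 3620, 3712, 3442 and 3799, and 4920, 5060 and 4459. Ccn1 was lower in lung than in bladder at -0.43 ± 0.07 (limma adjusted p = 0.0012), but at 0.08 (adjusted p = 0.231) with the scaling undone and -0.06 (adjusted p = 0.502) with quantile normalization. It was read densely at 2.01 reads per nt. 4632427E13Rik had 557 and 325 in lung, 343, 337 and 433 in intestine and 420, 264 and 346 in bladder, overlapping between all tissues. Rab30, a small GTPase gene whose start lies 93 bases away, had 139 and 192, 299, 286 and 252, and 903, 1060 and 874. The fitted differences of this RNA from bladder were only 0.13 in intestine and 0.33 in lung, so it was near level where Rab30 changed. A mixed pair was 9230112J17Rik, 1921 bases from the microfibril gene Thsd4, which had 274 and 164 in lung, 492, 366 and 370 in intestine and 5, 34 and 23 in bladder, and Thsd4 had 4629 and 2299, 2440, 1874 and 1856, and 2856, 2206 and 2939. Thsd4 overlapped between tissues and passed in no pair. Its fitted difference was of opposite sign to that of the RNA between intestine and bladder (-0.38, adjusted p = 0.21) and between lung and intestine (0.68, adjusted p = 0.0673) but of the same sign between lung and bladder (0.30, adjusted p = 0.395). Matching in order but not in range, AW011738, 2474 bases from the interferon gene Isg15, had 234 and 227 in lung, 1612, 1023 and 850 in intestine and 76, 99 and 101 in bladder, and Isg15 had 242 and 323, 367, 281 and 301, and 235, 183 and 197.

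Gt(ROSA)26Sor (chr6:113043843-113054294), the noncoding RNA of the Rosa26 locus in which the reporter sits, is used as a safe locus because it is broadly expressed. It had 741 and 850 in lung, 667, 618 and 731 in intestine and 398, 454 and 388 in bladder, with all bladder values below the others. It was higher in intestine than in bladder by 0.70 ± 0.11 (limma adjusted p = 0.000654) and in lung than in bladder by 0.94 ± 0.13 (adjusted p = 0.000335), and did not pass between lung and intestine at 0.24 ± 0.13 (adjusted p = 0.158). Thumpd3, a transfer RNA methyltransferase gene that overlaps it on the other strand, had 421 and 420 in lung, 416, 489 and 459 in intestine and 269, 270 and 295 in bladder, and was higher than in bladder by 0.60 ± 0.13 in lung (adjusted p = 0.00522) and by 0.71 ± 0.12 in intestine (adjusted p = 0.000727). Reads of the overlap cannot be told apart. All mice carried the reporter allele, and the part of that allele in these reads was not tested.

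ENSMUSG00000120992 (chr17:35215654-35219393), beside the valyl-tRNA synthetase gene Vars, had 1294 and 2103 in lung, 1950, 1882 and 1806 in intestine and 633, 350 and 630 in bladder. It had the largest differences from bladder of the 19, 1.85 ± 0.24 in intestine (limma adjusted p = 0.000167) and 1.67 ± 0.27 in lung (adjusted p = 0.00101). Vars had 2320 and 2664, 3050, 3349 and 3309, and 1827, 1885 and 2173, and was higher in intestine than in bladder by 0.72 ± 0.09 (adjusted p = 9.36e-05).

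Norad, which sequesters Pumilio proteins in the cytoplasm, had 578 and 374 in lung, 695, 699 and 627 in intestine and 1054, 887 and 869 in bladder. It was lower in lung than in bladder at -1.003 ± 0.18 (limma adjusted p = 0.00167). Its other calls were weak: -0.47 ± 0.16 between intestine and bladder (adjusted p = 0.0317) was lost without any 1 of the intestine or bladder libraries (adjusted p 0.0512 to 0.112), and -0.53 ± 0.18 between lung and intestine (adjusted p = 0.039) was -0.22 with adjusted p = 0.264 without lung replicate 2 and had adjusted p = 0.0931 with only those 2 tissues in the fit. Oip5os1, a conserved RNA that directs the decay of miR-7, had 1322 and 1226 in lung, 1279, 1292 and 1082 in intestine and 1235, 1114 and 1058 in bladder, overlapping throughout, with differences of 0.10 (95% interval -0.12 to 0.32), 0.17 (-0.08 to 0.41) and 0.07 (-0.18 to 0.31) in the 3 pairs. It passed as higher in lung than in bladder with equal totals (0.31, limma adjusted p = 0.0379), and with the scaling undone in both pairs with bladder (0.49 and 0.68).

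Brip1os had 1218 and 1265 in lung, 764, 930 and 962 in intestine and 1046, 1248 and 1262 in bladder and was lower in intestine than in bladder at -0.42 ± 0.11 (limma adjusted p = 0.0107) and higher in lung than in intestine by 0.49 ± 0.12 (adjusted p = 0.012), a call lost without lung replicate 2 (0.47, adjusted p = 0.0595). Chaserr, the noncoding regulator of its neighbour Chd2, had 879 and 877 in lung, 731, 630 and 622 in intestine and 591, 646 and 692 in bladder, and was higher in lung than in bladder by 0.45 ± 0.11 (adjusted p = 0.0112) and than in intestine by 0.41 ± 0.11 (adjusted p = 0.018), the second call lost without lung replicate 2, intestine replicate 2 or intestine replicate 3 (0.0518 to 0.0573). E130307A14Rik was lower in intestine than in bladder at -0.42 ± 0.14 (limma adjusted p = 0.0289), lost without any 1 intestine library or bladder replicate 1 or 2. Brip1os overlaps Ints2 and Med13, Chaserr overlaps Chd2 and E130307A14Rik overlaps Traf3ip2, and reads of these overlaps cannot be told apart. The same limit holds for Peg13, Gas5, Mir22hg, Kcnq1ot1 and Rab10os, which also overlap a coding gene. ENSMUSG00000120113 was lower in lung than in intestine at -0.32 ± 0.11 with limma adjusted p = 0.0495. That call was lost without any lung or intestine library or bladder replicate 1 or 2, with every other scaling tried, a pseudocount of 5, no filter, only those 2 tissues in the fit or the replicate block (adjusted p 0.0525 to 0.315).

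Other abundant RNAs with a large difference included Cerox1, a regulator of mitochondrial complex I subunits, which had 126 and 154 in lung, 142, 130 and 118 in intestine and 336, 443 and 479 in bladder. All its bladder values lay above the others. It overlaps Sox8 on the other strand, which had 94 and 120, 29, 13 and 54, and 146, 181 and 203. Reads of the overlap cannot be told apart. Gm36535, the highest per length, had 48 and 66 in lung, 38, 26 and 50 in intestine and 1128, 1213 and 1186 in bladder, and Gm45397 had 7 and 27, 16, 43 and 53, and 377, 310 and 316, both highest in bladder. AW112010, an RNA induced in immune cells, had 72 and 144 in lung, 456, 565 and 534 in intestine and 667, 673 and 647 in bladder, and the 10 leukocyte markers summed to 2138 to 2289, 3214 to 3585 and 4074 to 7200 in the same order. The intestine sum was mostly Jchain, a plasma cell gene with 166 and 310 in lung, 1807, 1798 and 2007 in intestine and 4, 3 and 0 in bladder. Lyz2, of macrophages, was lower in intestine (456 to 536) than in lung (1451 and 1403) and bladder (1743 to 2520). By mean Cd68 was likewise lower in intestine (94.7) than in lung (120.5). Csf1r (193.5 in lung, 370.3 in intestine), C1qa (96 and 180) and Adgre1 (26 and 62.7) had the other order between these tissues. All of these were highest in bladder by mean. The part of leukocytes in the values of AW112010 was not tested. Dubr had 454 and 430 in lung, 189, 195 and 226 in intestine and 336, 293 and 322 in bladder, and 4933412E12Rik had 338 and 437, 149, 139 and 127, and 358, 354 and 447, both lowest in intestine.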

How the data were processed

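RNA sequencing was measured in 8 libraries of sorted cells, made with the SMART-Seq v4 kit from at most 10 ng of RNA, per the labels' protocols. Tools named in the submitters' processing notes, with no role or order, are DESeq2 1.36.0, featureCounts 2.0.4, Trimmomatic 0.39, Picard 3.0.0 and STAR 2.7.10a, and the build is mm39. The deposited values carry no stated unit and are taken here for a score, that is read counts multiplied per library by a constant and rounded by the authors, called normalized reads in the text. The spacing gave the value of 1 read, 0.822 to 1.268, from which depth was reconstructed; this reconstruction is an estimate.

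Of the genes, 18097 reached 10 in 2 or more libraries and entered the fit (3552 did not). Values were transformed as log2(value + 1) and fitted in limma 3.58.1 (R 4.3.3) with a trend on intensity, with the 3 tissue means estimated together from all 8 libraries, and Benjamini-Hochberg adjustment over all of them. The log2 scale with a pseudocount of 1 understates the change of low genes. Replicates differed beyond sampling noise in every pair, so none was counted as a duplicate. The mean chi-square per gene was 26.7 for the 2 lung libraries and 5.01 to 8.34 for the pairs within intestine or bladder. The fit took 1 spread per gene over the 3 tissues, so errors and p-values of pairs with lung may be too small. Between lung and bladder 3466 genes were higher and 3952 lower, and 2503 and 3143 with only those 2 tissues in the fit, which also has fewer libraries. On simulated data for intestine and bladder, 99 of 100 genes changed by 1 and 100 of 100 changed by 2 on the log2 scale were recovered, with 5 of 17246 unchanged genes called. The simulation changed only genes of higher mean value and gave every gene and library the same dispersion. No pair with lung was read from it, so these rates do not carry over to lung or to low genes.

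The members and gene lists were chosen with earlier results of these data known. Genes named in the text were members in a list, the 12 highest, the 5 of largest difference per pair and direction, the 5 most variable within a tissue, the 3 on either side of the threshold, up to 5 of smallest difference per pair, and their coding neighbours. Others, among them Gt(ROSA)26Sor, Norad, Cerox1, ENSMUSG00000120113 and the pair of 4632427E13Rik and Rab30, were named after their values were seen. Coordinates are those of the deposited table (mm39). Exon lengths and small RNA positions came from GENCODE M21, and sequences from RefSeq (GRCm38.p6). Alternatives to the pseudocount, filter, scaling, libraries and thresholds were tried.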

Additional observations from a re-analysis of the deposited data

How the results depend on the processing

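The counts and medians of the 19 RNAs at 300 or more in all libraries moved mainly with scaling. With the deposited scaling undone, intestine against bladder had 9 higher and 0 lower with a median of 0.308, lung against bladder 10 and 1 with 0.583, and lung against intestine 1 lower with 0.186, while the all-gene medians were 0.449, 0.479 and 0.074. In that setting Malat1 (0.318), Gas5 (0.056), Snhg18 (0.282) and Foxf1 (0.048) reversed between intestine and bladder, and Neat1 (0.004), Gas5 (0.031) and Ccn1 (0.077) between lung and bladder, all below those medians. With quantile normalization Snhg16 reversed between lung and intestine (0.041), where the all-gene median was 0.178. Medians in the order of pairs were 0.006, 0.217 and 0.123 with equal totals (8 higher between lung and bladder), and -0.203, 0.025 and 0.14 with scaling from low density genes; quantile normalization gave -0.247 and 0.121 for the first 2 pairs. At a threshold of 200 (37 RNAs) intestine against bladder had 9 higher, lung against bladder 7 lower with a median of 0.011, and lung against intestine 9 higher and 10 lower with -0.079. At 500 (11 RNAs) the first had 2 and 3, the second 3 and 2 with 0.168, the last 2 lower with 0.158. Without overlap of coding genes (10 RNAs) the first had 2 and 2, the second 3 higher with 0.011, the last 2 higher with -0.059. With only 2 tissues in the fit, lung against intestine had 1 lower. The cause of these moves, apart from fewer genes or samples, was not tested.

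Leaving out 1 library gave 4 to 4 higher, 2 to 6 lower and a median of -0.161 to -0.045 for intestine against bladder, 5 to 6, 3 to 5 and -0.016 to 0.111 for lung against bladder, and 3 to 6, 2 to 4 and -0.014 to 0.107 for lung against intestine. The medians turned below 0 without bladder replicate 1 (lung against bladder) and without intestine replicate 3 (lung against intestine). The summed share of all 68 RNAs ranged over 2905 to 2979 ppm in lung, 2867 to 2957 in intestine and 2669 to 2709 in bladder with 1 library left out, and without Malat1 the shares were 2737, 2741 and 2516 ppm. Correlations with neighbours ranged over 0.722 to 0.749, 0.721 to 0.759 and 0.839 to 0.868, and became 0.248, 0.589 and 0.3 without the 4 pairs chosen after seeing the data. Same-sign counts ranged over 14 to 15, 11 to 13 and 10 to 13. The replicate numbers did not pair the libraries (correlations of same-numbered deviations from -0.0264 to 0.0581), and with the replicate block the counts of the 19 kept within 1.5 times and the lung and intestine median was 0.003.

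For single genes, 1150 of the values recomputed under other settings kept direction and side of the threshold, 37 that passed in neither changed sign, 66 lost the call, 59 gained it and 8 that passed in at least 1 of them reversed. On leaving out a library 1041 kept both, 22 that passed in neither changed sign, 90 lost the call and 23 gained it. Depth limits genes below about 3.8 normalized reads, the floor of 3 reads in the shallowest library.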
